A study of Mus musculus with 4 samples.

Results

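The genes described here are Sln, Myl7, Myl4, Stard10, Tbx5 and Pam, genes known for their transcription in atrial heart muscle. They were chosen by their measured signal in an earlier look at these same arrays, on 1 of which atrial transcripts stood out, so their values are a description and no test is read from them. All probes that carry one of the 6 gene symbols were taken, which gave 12 of the 41174 probes on the array, and 11 of the 12 passed the filter on dim probes together with 28305 probes in all.

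Left ventricular RNA was taken from mice 7 days after myocardial infarction (MI), which was produced by permanent ligation of a coronary artery (the left anterior descending branch), and was hybridised to Agilent one-color arrays. The wild-type (WT) group and the KDM5B-knockout (KO) group each had 2 arrays, numbered 2 and 3 in the labels, and values are given below in the order KO 2, KO 3, WT 2 and WT 3. KO mice carried a CRISPR/Cas9 deletion that removes the JmjC domain of the histone demethylase KDM5B and shifts the reading frame. Per the paper, KO mice were made on a C57BL/6 background, and the WT mice, also C57BL/6, were littermate controls. Both groups had undergone MI, and per the methods the mice were males of 8 to 10 weeks at surgery. No uninjured heart and no atrial sample was analysed here, and nothing in the labels says how the tissue was dissected or whether a sample was 1 mouse.

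Atrial and ventricular cardiomyocytes build the same contractile apparatus from partly different parts. Myl7 is the regulatory and Myl4 the essential myosin light chain of atrial muscle, where Myl2 and Myl3 serve in the ventricle, and Sln encodes sarcolipin, a small membrane protein that inhibits the sarcoplasmic reticulum calcium pump much as phospholamban does. Tbx5 is a T-box transcription factor needed for atrial and conduction system development that is also active in the left ventricle, Pam amidates peptides in the secretory pathway and is abundant in atrial secretory granules, and Stard10 encodes a phospholipid transfer protein of the START family. In the adult mouse, transcripts of Sln, Myl7 and Myl4 are largely restricted to the atria.

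The probes that carry the results are shown first, because the signal of a gene rests on 1 or a few 60-base probes. Positions are on mm9 as the array files give them, whether a probe lies in a coding or a non-coding exon was not determined, and for Sln and Myl7 the first 30 bases are printed. The brighter Sln probe lies at chr9:53701574-53701633 and the dimmer at chr9:53701962-53702021, both on the plus strand, and the Myl7 probe lies at chr11:5796640-5796699 on the minus strand. The Myl4 probes, at chr11:104445435-104445805 and chr11:104445422-104445792 on the plus strand, each span 371 bases of genome for 60 bases of probe. Capitals mark the 47 bases that both Myl4 probes hold, and these 2 probes are therefore not independent readings.
Sln, brighter probe: gccttagctttgttccctagcaaatgtact
Sln, dimmer probe: ctcaaacctttccttcgagaatcctatgac
Myl7: atgagaaagaggagtagacaggctgaggtc
Myl4, probe 1: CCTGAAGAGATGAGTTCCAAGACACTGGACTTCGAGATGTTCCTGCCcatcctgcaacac
Myl4, probe 2: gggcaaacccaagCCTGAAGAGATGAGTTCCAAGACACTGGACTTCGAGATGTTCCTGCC

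The share of probes well above background ran from 68.15% to 72.04% over the arrays, no spot was saturated, and the 75th percentile of the signal lay between 607.6 and 976.1, lowest on KO 2. Kdm5b gave log2 values of -2.40 on KO 2, -2.26 on KO 3, -0.87 on WT 2 and -1.81 on WT 3, relative to that percentile, so both KO arrays were lower, though whether the probe lies in the deleted stretch was not determined. KO 2 stood apart from the other arrays. On KO 2, 1413 of the 28305 tested probes (4.99%) were more than 2-fold above the highest of the other 3 arrays, and the same held for 219 probes on KO 3, 152 on WT 2 and 74 on WT 3. More probes departed downward, 2009 (7.10%) on KO 2 being more than 2-fold below the lowest of the other 3 arrays. That held for 232 probes on KO 3, 82 on WT 2 and 77 on WT 3. All samples are labelled male, yet Xist signal reached 4.36 for WT 2 and 4.0 for KO 2, whereas WT 3 at -8.01 and KO 3 at -7.78 were not above background, and the Y-linked Ddx3y was above background only on WT 3 and KO 3. The part of this split in the results was not tested. The arrays lay on 1 slide with the WT arrays side by side and the KO arrays side by side, so position and genotype cannot be told apart.

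Sln showed the widest gap between 1 array and the other 3 of all tested probes. The processed signal of its brighter probe was 37512 on KO 2, 161 on KO 3, 5.83 on WT 2 and 31.6 on WT 3. After scaling to the 75th percentile of its array, its log2 values were 5.95, -2.46, -7.23 and -4.95 in the same order. On WT 2 this probe did not clear background, so it passed the filter on dim probes only through the KO arrays. KO 2 was far above every other array, KO 3 was second, and the KO and WT arrays did not overlap. On KO 2 Sln was 339-fold above KO 3, 1905-fold above WT 3, and at least 2737-fold above WT 2, where the lowest signal well above background served as the bound. KO 3 itself was 5.62-fold above WT 3. The KO mean was 1.75 ± 5.94 (SD, n = 2) and the WT mean -6.09 ± 1.61 (SD, n = 2), a difference of 7.84 with a standard error of 3.19 from the limma fit. The WT mean includes the WT 2 value that was not above background, and with normexp background correction the difference was 5.58. The spread within KO was thus of the size of the difference itself. The second Sln probe gave 34.0 on KO 2, 3.25 on KO 3, 4.12 on WT 2 and 3.34 on WT 3, and was well above background only on KO 2, so it was not tested. For this probe KO 2 was at least 2.48-fold above WT 2, 3.34-fold above WT 3 and 3.20-fold above KO 3.

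Myl7 was represented by 1 probe. Its signal was 50963 on KO 2, 1039 on KO 3, 538 on WT 2 and 766 on WT 3, and the log2 values were 6.39, 0.23, -0.70 and -0.35. The probe was well above background on every array, and KO 2 alone lay far from the rest. Its signal on KO 2 was 71.4-fold that on KO 3 and 137-fold that on WT 2. KO 3 was 1.5-fold above WT 3, so the KO and WT arrays did not overlap for Myl7 either. The WT mean was -0.53 ± 0.25 (SD, n = 2), the KO mean 3.31 ± 4.36 (SD, n = 2), and the difference 3.84 with a standard error of 2.26.

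Among the 6 genes, Myl4 was the one on which the remaining arrays were closest together. Probe 1 gave 26668 on KO 2, 563 on KO 3, 568 on WT 2 and 665 on WT 3, or 5.46, -0.65, -0.63 and -0.55 on the log2 scale. WT 2, WT 3 and KO 3 lay within 0.10 log2 units of each other, and KO 2 was 67.8-fold, 64.4-fold and 69.0-fold above them. Probe 2 gave 24938 on KO 2, 462 on KO 3, 441 on WT 2 and 576 on WT 3, in the same pattern. On probe 1 the difference between the KO and WT means was 2.99 with a standard error of 2.24, and the KO and WT arrays overlapped, since KO 3 was the lowest of the 4. High Myl4 signal was found on KO 2 and not on KO 3.

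**Figure D1:**
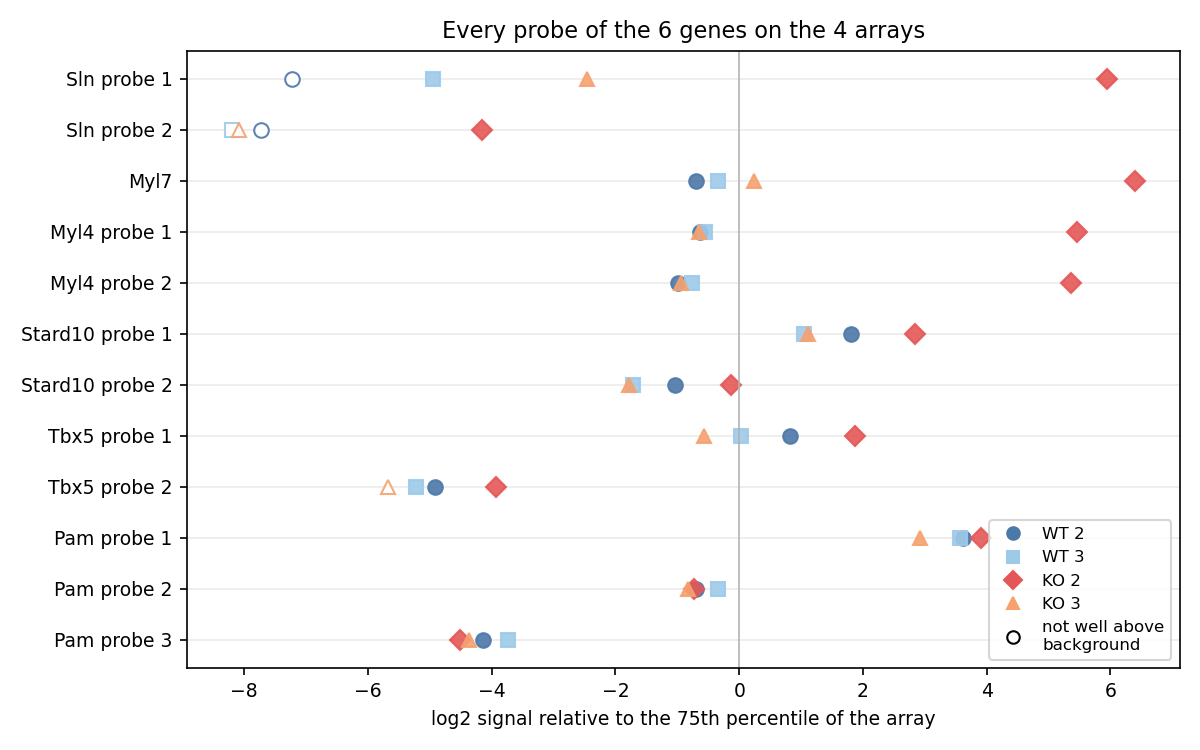
Each row is 1 probe of the 6 genes and each marker 1 array, placed by its log2 signal over the 75th percentile of that array, with open markers where the probe was not well above background. KO 2 lies to the right of every other array for Sln, Myl7 and Myl4, by 8.40, 6.16 and 6.01 log2 units on the brighter probes, while on each Pam probe the 4 arrays lie within 1 log2 unit.

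The remaining members differed far less. Stard10 signal was 4341 on KO 2, 1912 on KO 3, 3059 on WT 2 and 2006 on WT 3, so KO 2 was highest but WT 2 followed within 1.03 log2 units, and the difference between the KO and WT means was 0.55 with a standard error of 0.72. Its dimmer probe ranked the arrays in nearly the same way, with log2 values of -0.14, -1.79, -1.04 and -1.71. Tbx5 signal was 2218 on KO 2, 600 on KO 3, 1542 on WT 2 and 992 on WT 3. Tbx5 thus had its highest and its lowest value on the KO arrays, and the difference of means was 0.23 with a standard error of 0.95. The dimmer Tbx5 probe gave 40, 17.3, 29.0 and 26.1, of which the KO 3 value was not well above background. For Pam the signal was 9084 on KO 2, 6687 on KO 3, 10708 on WT 2 and 11526 on WT 3. After scaling, KO 2 was highest for this Pam probe by only 0.29 log2 units, and the other 2 Pam probes put KO 2 below the highest of the other arrays by 0.77 and 0.39 log2 units. The probes of Pam disagreed in this, and on both dimmer probes the KO arrays lay below the WT arrays, with differences of -0.50 and -0.26.

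Set against all tested probes, the brightest probes of Sln, Myl7 and Myl4 held places 1, 3 and 5 in the height of KO 2 above the highest other array, and the second Myl4 probe held place 4. Place 2 belonged to Cfd, the adipocyte gene for adipsin, at 6.21 log2 units. Stard10, Tbx5 and Pam held places 1296, 1219 and 6926 of 28305. By gene, 5 of the 6 members were more than 2-fold above the other arrays on KO 2, where 4.99% of tested probes and 5.42% of tested genes were. Stard10 and Tbx5 passed that line narrowly on their brighter probes and missed it on their dimmer ones, at 0.90 and 0.99 log2 units. Only 7 tested probes exceeded the other arrays by more than 4 log2 units on KO 2, and 4 of these belonged to Sln, Myl7 and Myl4. No WT array had such a probe, and KO 3 had 1, for the chemokine Cxcl13 at 5.66 log2 units. Because the members were chosen by these values, the places describe them and support nothing further.

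**Figure D2:**
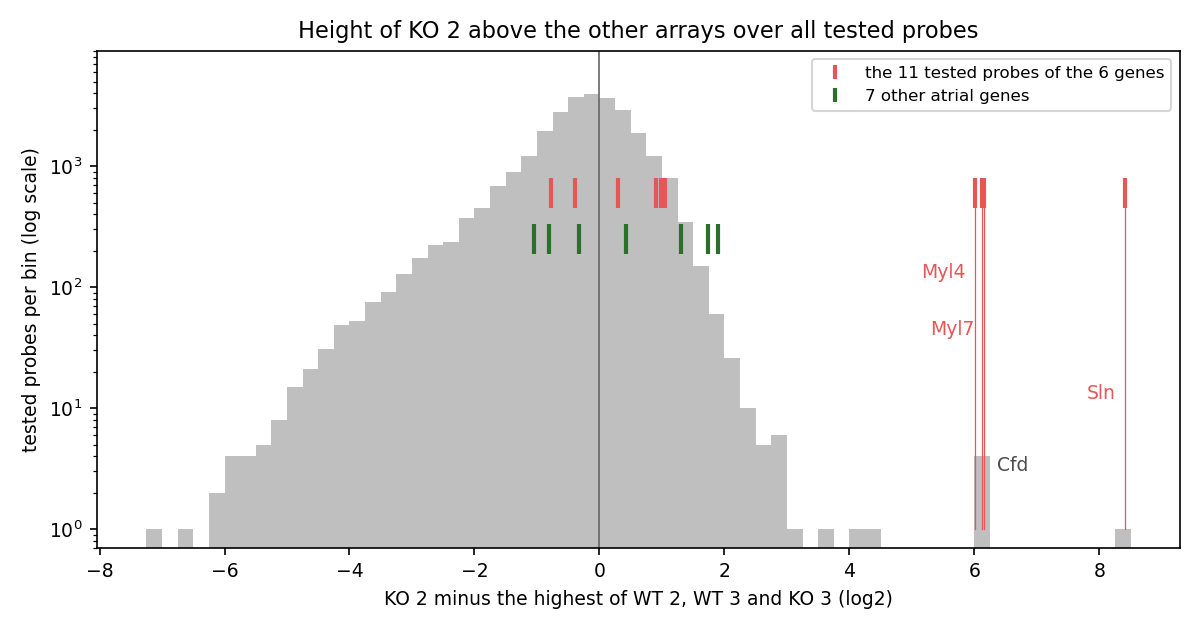
Grey bars count the 28305 tested probes in bins of KO 2 minus the highest of WT 2, WT 3 and KO 3, on a log scale. Red ticks are the 11 tested probes of the 6 genes and green ticks 7 other atrial genes. The probes of Sln, Myl7 and Myl4 lie at 6.01 log2 units or more, and the highest of the other atrial genes, Kcnj3, lies at 1.89, in the upper tail at place 77.

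KO was also compared with WT over all probes. With limma and Benjamini-Hochberg adjustment, 0 of the 28305 probes (0%) reached an adjusted p under 0.05 with a fold over 2, the lowest adjusted p being 0.9999, and 410 (1.45%) had an unadjusted p under 0.05. Sln, Myl7 and Myl4 were among the 1% of probes with a KO mean more than 2-fold higher. No member was among the 2.35% with a KO mean more than 2-fold lower. Both KO arrays were above both WT arrays for Sln and Myl7, 2 of the 6 genes, against 13.1% of all tested probes, and below them for the 2 dimmer Pam probes, against 10.9%. Sln was tested only through KO, the group where it was high, so its place in these counts supports nothing further. With KO 2 left out, KO 3 minus the WT mean was 3.63 for Sln, 0.76 for Myl7, -0.06 for Myl4, -0.31 for Stard10, -0.98 for Tbx5 and -0.67 for Pam. Each of these values rests on 1 KO array.

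Other transcripts known for atrial muscle were then examined, from a list of 12 genes that are not members. The filter on dim probes required signal on both arrays of a group, and 5 of the 12 genes did not pass it. One of these was Mybphl, a myosin-binding protein of atrial and conduction system muscle. Mybphl signal, from a probe at chr3:108178294-108178353 (mm9), was 1251 on KO 2, 4.08 on KO 3, 12.8 on WT 2 and 11 on WT 3, and only the KO 2 value was well above background. KO 2 was at least 91.3-fold above WT 2, 123-fold above WT 3 and 118-fold above KO 3. Among the 530 probes that were well above background on KO 2 alone, Mybphl had the highest such bound. Kcnj5, a subunit of the muscarinic potassium channel, barely cleared background on KO 2 and did not on the other arrays. Its signal was 17 on KO 2, 11.2 on WT 2, 4.85 on WT 3 and 3.26 on KO 3. The lowest signal well above background was 14.3 on KO 2 and 19.8 on WT 2. KO 2 was thus at least only 1.24-fold above WT 2, place 456 among the 530 probes. The probes of Bmp10, an atrial growth factor, and of Nr2f1 were not well above background on any array.

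Of the 7 other atrial genes that were tested, KO 2 was highest for 4, against 39.98% of all 18440 tested genes, a share that also stands behind the counts below. Kcnj3, the partner subunit of Kcnj5, gave log2 values of -0.66 on KO 2, -5.55 on KO 3, -2.55 on WT 2 and -4.78 on WT 3. Kcna5, which carries the ultrarapid potassium current, gave 0.65, -1.79, -1.09 and -1.13, and the muscarinic receptor gene Chrm2 gave -1.77, -4.25, -3.08 and -3.84. For these 3 genes KO 2 was more than 2-fold above the highest other array, which is 42.9% of the list against 5.42% of all tested genes. The share was not particular to atrial genes, being 50% of the tested ventricular genes and 41.2% of the pan-cardiomyocyte genes described below. Nppa, which encodes atrial natriuretic peptide and is also induced in injured ventricle, was high on every array, at 9.24, 8.56, 8.81 and 8.54, and the KO 2 value exceeded the rest by 0.43. Dkk3, Nr2f2 and Gja5 were not highest on KO 2. Nr2f2, an atrial identity factor that is also active in veins and mesenchyme, gave 0.90, 1.51, 1.21 and 1.95. The median difference between the KO and WT means over the 7 genes was 0.35, against 0.02 over all tested genes, and 0 of the 7 had an unadjusted p under 0.05.

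Genes of the sinoatrial node and conduction system gave a mixed picture. Of 9 genes 7 were tested, and KO 2 was highest for 3, near the share over all genes. Hcn4, the pacemaker channel, gave -0.99 on KO 2, -2.75 on KO 3, -2.66 on WT 2 and -2.62 on WT 3, the only tested gene of the list more than 2-fold above the rest on KO 2. Tbx3, a T-box repressor of the node, gave 1.47, -0.39, 0.80 and 0.23. Shox2 gave -5.27, -4.73, -4.70 and -5.25, with KO 2 next to WT 3, and Isl1 was not well above background on any array.

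The tissue label of left ventricle was set against ventricular genes, of which 10 of 11 were tested. The light chains had high signal on every array, the ventricular factors Irx5 and Hey2 were dim, and Hand1 was above background on no array. Myl2, the ventricular regulatory light chain, gave 8.87 on KO 2, 5.74 on KO 3, 7.98 on WT 2 and 6.49 on WT 3. Myl3, the ventricular essential light chain, gave 9.13, 5.75, 8.04 and 6.40, and Irx4, a ventricular transcription factor, 2.05, -1.32, 1.05 and -0.62. KO 2 was highest for 8 of the 10 tested ventricular genes and for 16 of 17 pan-cardiomyocyte genes, and KO 3 was lowest on the mean of both lists. The pan-cardiomyocyte mean was 6.45 on KO 2, 4.07 on KO 3, 5.56 on WT 2 and 4.73 on WT 3, so heart muscle transcripts as a whole ranked the arrays in the same order as Tbx5 and nearly as Stard10. In bulk tissue, more cells of a type and more RNA per cell cannot be told apart.

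The members were therefore also expressed relative to the pan-cardiomyocyte mean of the same array, a scaling chosen after the data were seen. On this scale Sln was 6.02 log2 units (65.1-fold) above the highest other array on KO 2, Myl7 3.78 (13.7-fold) and Myl4 3.73 (13.3-fold) on probe 1. The height of KO 2 on the brighter Tbx5 probe came to 0.05, with values of -4.58 on KO 2, -4.63 on KO 3, -4.75 on WT 2 and -4.71 on WT 3. The brighter Tbx5 probe thus kept a nearly fixed ratio to cardiomyocyte transcripts across the arrays. On the dimmer probe KO 2 lay 0.63 below KO 3, but the KO 3 value was not well above background. The remaining values of that probe were -10.37 on KO 2, -10.48 on WT 2 and -9.96 on WT 3. Stard10 and Pam turned, KO 2 lying below the highest other array by 0.65 and 1.39. Of the other atrial genes, Kcnj3 was 1.01 above on KO 2, Chrm2 0.10 and Kcna5 0.06, and Nppa was 1.70 below. Relative to cardiomyocyte transcripts, Sln, Myl7 and Myl4 were also higher on KO 3 than on WT 3, by 3.15, 1.24 and 0.56. The pan-cardiomyocyte mean was itself lower on KO 3 than on WT 3, at 4.07 against 4.73, which raises every gene in this comparison. Without this scaling the Myl4 difference was -0.10. Stard10, Nppa and Gja5 also came out higher on KO 3, by 0.73, 0.68 and 1.03, and Tbx5, Pam and Kcnj3 differed by 0.08, 0.02 and -0.11.

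**Figure D3:**
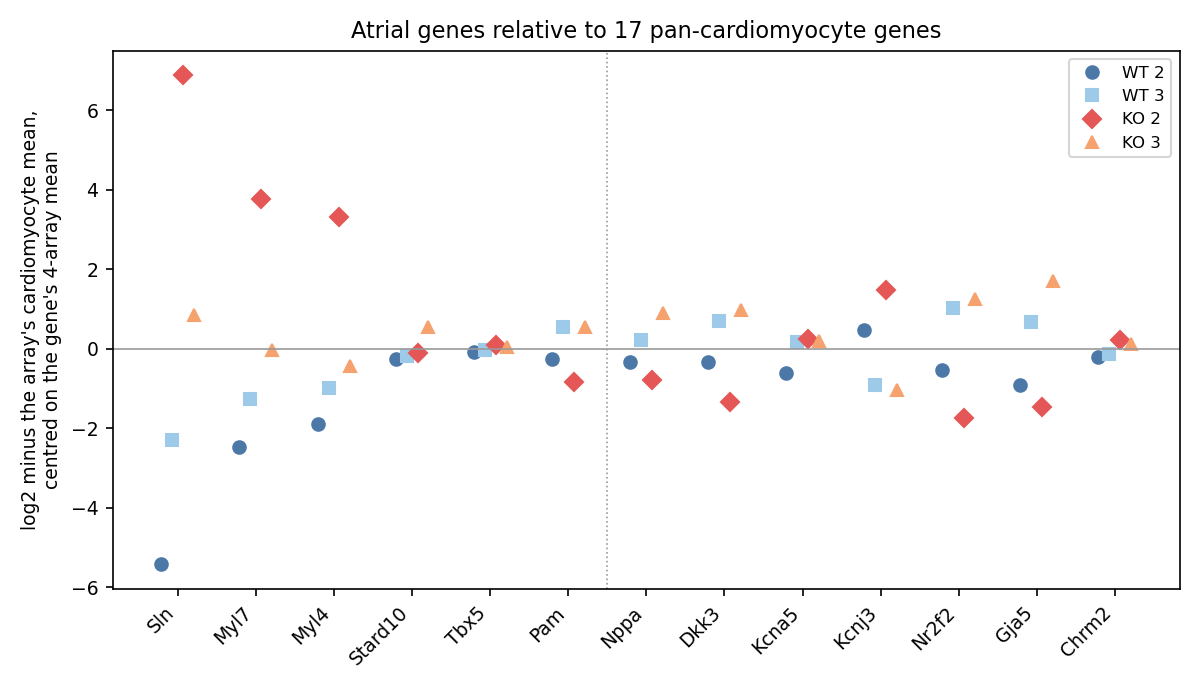
The log2 signal of each gene minus the mean of 17 pan-cardiomyocyte genes on the same array is shown after centring on the mean of the 4 arrays, with members left of the dotted line and other atrial genes right of it. Sln, Myl7 and Myl4 keep KO 2 apart by 6.02, 3.78 and 3.73 log2 units, and the arrays come together for Tbx5 and Chrm2.

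By array number, KO 2 minus WT 2 was 13.18 for Sln, with WT 2 not above background, 7.09 for Myl7 and 6.08 for Myl4. KO 3 minus WT 3 was 2.49, 0.58 and -0.10. The labels do not say that equal numbers mark a shared litter or day. The numbers coincide with the Xist and Ddx3y split, so array number and apparent sex cannot be told apart. For the ventricular genes the medians of the same differences were 1.0 and -0.67, for the pan-cardiomyocyte genes 0.88 and -0.66, and over all tested genes 0.02 and 0.01.

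**Figure D4:**
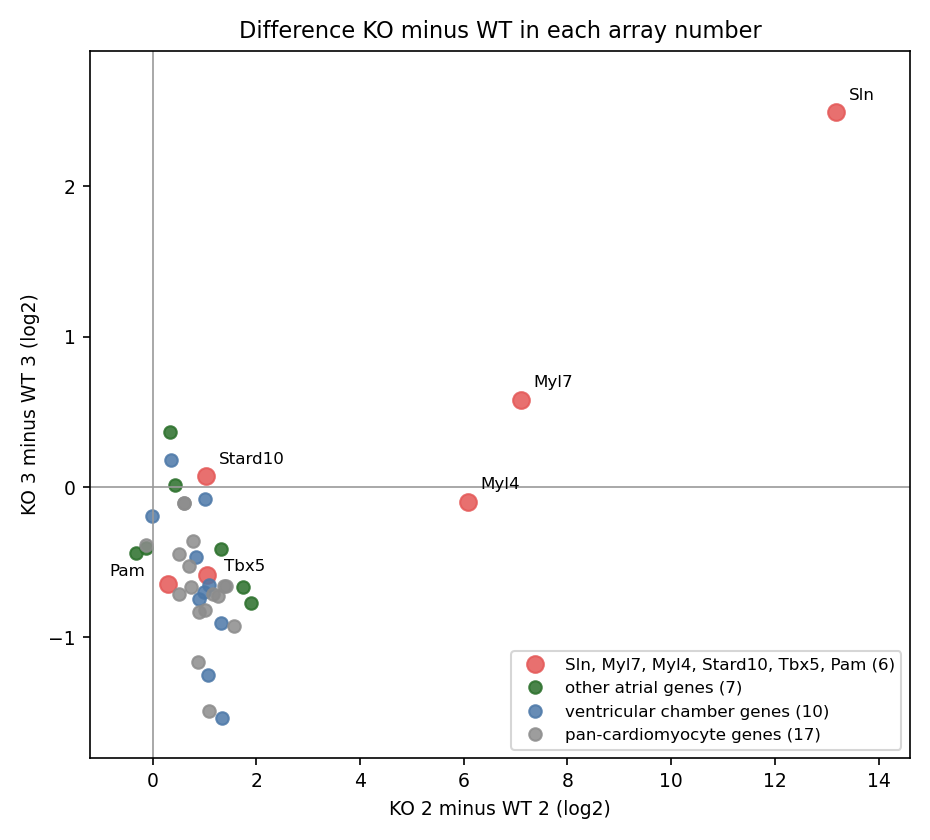
Each point is a gene, with KO 2 minus WT 2 on the horizontal and KO 3 minus WT 3 on the vertical axis, both in log2 units. Sln, Myl7 and Myl4 lie far to the right at 13.18, 7.09 and 6.08, and ventricular and pan-cardiomyocyte genes cluster at medians near 1 on the horizontal axis and below 0 on the vertical axis; the horizontal position of Sln rests on a WT 2 signal that was not well above background.

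The pathways of the members were followed beyond them. Among 7 calcium pumps and calcium handling regulators, KO 2 was highest for 6, and all 6 were more than 2-fold above the other arrays. The shares over all tested genes were 39.98% and 5.42%. Atp2a2, the cardiac pump that sarcolipin inhibits, gave 7.46 on KO 2, 4.29 on KO 3, 6.29 on WT 2 and 5.0 on WT 3, and Pln, which encodes phospholamban, gave 6.04, 2.36, 4.97 and 3.61. These followed the order of the pan-cardiomyocyte mean, and Sln, with WT 2 lowest, did not. Of 10 tested myosin light chain and kinase genes, KO 2 was highest for 7 and more than 2-fold above the rest for 3. The non-muscle and smooth muscle chains were mixed. Myl6 and Myl9 were highest on KO 3 and Myl6b on WT 3, while Myl12a and Myl12b were highest on KO 2, by 1.14 and 0.39 log2 units. Of the 7 tested T-box genes besides Tbx5, KO 2 was highest for 2 and more than 2-fold above the others for 0. Tbx20, a cardiac T-box factor, stayed between 2.25 and 2.68 on the 4 arrays. Among 10 tested peptide processing genes besides Pam, KO 2 was highest for 4, including Corin, the protease that activates atrial natriuretic peptide, at 2.26, 0.11, 1.29 and 0.77. Of 8 START genes besides Stard10, KO 2 was highest for 4. The T-box, peptide processing and START counts were at or near the share over all genes, or below it. In these 5 lists 0 genes passed the adjusted threshold, and the genes with an unadjusted p under 0.05 were Tbx21 and Pcsk1, the latter below background on both KO arrays and so tested only through WT.

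The genes most like each member over the 4 arrays were sought among 14382 genes with signal on all arrays, after centring each gene on its own mean. Myl4 was the closest gene to Myl7, with a root mean square difference of 0.43 log2 units, and Myl7 was the closest to Myl4. Next came Tmem163, at 0.82 from Myl7 and 0.71 from Myl4, and then the adipocyte genes Cfd, Cidec and Car3 in differing order, from 0.85 to 1.23. The closest to Sln were Myl7 at 2.26, Myl4 at 2.67 and Cfd at 2.75, which are larger distances, and Sln also differed between WT 2, WT 3 and KO 3.

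Since fat genes appeared among them, adipocyte markers were read as a list of 11, chosen after the data were seen. Of these 6 were tested and KO 2 was highest for all 6. The list means were 2.16 on KO 2, -1.73 on KO 3, -0.93 on WT 2 and -1.69 on WT 3. The 6 include Cfd, Cidec and Car3, which prompted the list, so the count and the means follow in part from that choice. For the other tested genes, Retn, Fabp4 and Lpl, KO 2 exceeded the highest other array by 1.04, 1.01 and 1.38 log2 units. Retn was not above background on either WT array, and Lpl ranked the arrays as the pan-cardiomyocyte mean did. Adipoq signal was 201 on KO 2 and at most 10.9 elsewhere, which put KO 2 at least 14.7-fold above the other arrays. Plin1 was above background only on KO 2, but dim at 27.1, and KO 2 was at least 1.98-fold above the other arrays. Lep and Ucp1 were above background on no array, and Pck1 was matched to no probe. For 5 of 6 mesothelial markers KO 2 was the lowest array, the exception being Wt1, with -0.48 on KO 2, below KO 3 and above the WT arrays. Their mean over the 6 genes was -2.67 on KO 2, 0.96 on KO 3, -0.51 on WT 2 and 0.19 on WT 3, and Msln, the defining marker, gave 0.90, 4.38, 2.99 and 3.85. The 7 fibroblast and scar markers averaged 5.86, 6.58, 6.69 and 6.61, and the 5 macrophage markers 2.45, 3.85, 3.01 and 3.51, both lowest on KO 2 as a mean. Among the macrophage markers Cd163 was instead highest on KO 2, at 0.47 against at most -0.91. The part of fat, surface lining, scar or atrial tissue in the Sln, Myl7 and Myl4 signal was not tested.

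The sequence before the start of Myl7 is given because Myl7 and Myl4 had nearly the same profile. RefSeq promoter windows on GRCm38.p6 were found for Myl7, Myl4, Stard10 and Pam, and the 250 bases before each start were searched on both strands. Capitals in the Myl7 sequence, at chr11:5898783-5899032 on the minus strand, mark a CArG box, the binding motif of serum response factor, that begins 61 bases before the start, and the GATA factor motif GATAAG 41 bases before it.
Myl7 upstream: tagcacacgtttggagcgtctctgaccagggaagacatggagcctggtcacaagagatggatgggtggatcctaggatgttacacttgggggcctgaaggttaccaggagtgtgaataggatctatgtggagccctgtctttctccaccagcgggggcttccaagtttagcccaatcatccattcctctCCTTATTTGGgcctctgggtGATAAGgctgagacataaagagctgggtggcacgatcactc
Of 32851 windows of the same length, 1.47% held a CArG box and 6.55% held GATAAG. The window of Myl4 held neither, nor did those of Stard10 and Pam. The NKX2-5 core AAGTG occurred once each before Myl7 and Myl4, as in 40.7% of windows, and the T-box core AGGTGT, in 11.8% of windows, and the MEF2 motif, in 0.508%, were found before none of the 4 genes. These are matches of letters in a window, not sites of binding.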

How the data were processed

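Left ventricular RNA from WT and KDM5B-KO mice was hybridised to Agilent one-color arrays, 2 per group. The authors deposited the spot intensity values of each array, and per the file headers these came from Feature Extraction 10.7.3.1, with background subtracted and detrended and positions on mm9. A second deposited table held log2 values with a median of 6.78 in each column. Of its compared rows, 99.90% to 99.96% on each array matched the quantile-normalized log2 intensity to within 0.01.

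Control and outlier-flagged spots were left out, spots of 1 probe were averaged, and log2 processed intensity was shifted by the 75th percentile of each array. A probe was tested when well above background on both arrays of a group. KO was compared with WT in limma 3.58.1 (lmFit, eBayes) under R 4.3.3 with Benjamini-Hochberg adjustment at 0.05 and a fold over 2. The fit was also run on simulated data with a common spread for every array and both KO arrays shifted alike. These arrays do not share that setting, since KO 2 stood apart, so that run checks the code only. The smallest two-sided p of an exact permutation test is 0.333 in this design, and nothing says whether the arrays came from separate mice, so p-values measure the spread between these arrays only. Symbols matched RefSeq (GRCm38.p6) for 31437 probes, older symbols 471 and accessions 1820. A gene is given by its brightest tested probe unless stated.

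The members and the gene lists were chosen with earlier results of these data known. Named by rule were all probes of the members, genes of the atrial, sinoatrial and ventricular lists, and defining genes of the other lists. The 5 genes closest to Sln, Myl7 and Myl4 were also named by rule. Further genes, among them Cxcl13, Tbx21, Pcsk1, Myh2, Wt1, Cd163 and Cntnap5a, were named because of their values. Alternatives were normexp, quantile and median scaling, the deposited log2 table, other filters, the array number as a block, a plain t-test with no variance sharing across probes and each array left out. The adipocyte list and the scaling to pan-cardiomyocyte genes were added after the data were seen. One gene of the atrial list is not reported here.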

Additional observations from a re-analysis of the deposited data

How the results depend on the processing

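The number of arrays limits every value, and 1 KO array carried the signal of Sln, Myl7 and Myl4. Under normexp, quantile or median scaling and in the deposited log2 table, KO 2 exceeded the highest other array by 7.72 to 8.44 log2 units for Sln, 5.80 to 6.2 for Myl7, 5.68 to 6.04 for Myl4, 0.88 to 1.10 for Stard10, 1.0 to 1.12 for Tbx5 and 0.04 to 0.36 for Pam. Relative to the pan-cardiomyocyte mean these heights were -0.65 for Stard10 and -1.39 for Pam. Normexp shifted the median difference of all probes to 0.13, against 0.02 in the main scaling.

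KO minus WT for Sln was 5.58 with normexp, against 7.84. With each array left out in turn, KO minus WT ranged from 3.63 to 12.04 for Sln, 0.76 to 6.92 for Myl7, -0.0620 to 6.05 for Myl4, -0.31 to 1.42 for Stard10, -0.98 to 1.45 for Tbx5 and -0.67 to 0.32 for Pam. The sign turned for Myl4 and Stard10 without KO 2, for Tbx5 without KO 2 and, at -0.16, without WT 3, and for Pam without KO 3. Probes with a fold over 2 numbered 949, against 209 with normexp, 2110 without a filter on dim probes, 472 with signal required on all 4 arrays, a filter that Sln did not pass, and 1367 to 6373 with an array left out, the highest without KO 3. No setting had a probe past the adjusted threshold.

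The array numbers were not taken to pair the samples, since the labels do not say so. They coincide with the Xist and Ddx3y split, Xist being high on WT 2 and KO 2, so a block by number is also a block by apparent sex. Deviations of the arrays numbered 2 from their group means had a correlation of 0.57 across probes. With the array number as a replicate block, 602 probes had an unadjusted p under 0.05, against 410, and the block changed no call. The t-test without variance sharing gave 88 probes at an unadjusted p under 0.05 with a fold over 2 and 0 after adjustment.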

Other observations

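Lists of other tissues were also read. Of 7 lung markers only Scgb1a1, a club cell protein, was tested, and the surfactant genes Sftpa1, Sftpb, Sftpc and Sftpd were not well above background on any array. The 3 erythroid markers averaged 6.31 on KO 2, 5.16 on KO 3, 4.43 on WT 2 and 6.13 on WT 3. The 5 endothelial markers averaged 2.73, 1.97, 2.12 and 2.11. Of 11 tested skeletal muscle markers, KO 2 was highest for 8, against 39.98% of all tested genes. Among them 1 had an unadjusted p under 0.05 in limma, the fast myosin heavy chain gene Myh2, at -5.28, -5.50, -6.41 and -6.92, where both WT values were below background, so it was tested only through KO, and 0 passed the adjusted threshold.

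Cntnap5a had the second-highest lower bound after Mybphl among probes above background only on KO 2, with a signal of 295 on KO 2 and 19.6, 5.04 and 11 on KO 3, WT 2 and WT 3. It was named after its values were seen.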
